A study of Mus musculus with 6 samples.

Results

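The 10 genes described here mark the cells that wrap blood vessels. They are 5 contractile genes of vascular smooth muscle (Acta2, Myh11, Tagln, Cnn1 and Mylk) and 5 genes of pericytes and other mural cells (Abcc9, Rgs5, Pdgfrb, Cspg4 and Notch3). They were chosen by name as cell type markers, and each was found once among 51888 rows of the count tables. All 10 passed the filter on low counts that left 14302 genes to test.

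RNA from whole hearts of 3 Elac2 knockout mice and 3 control mice was sequenced, all on a C57BL/6 background. The knockout samples are titled "L/L, cre" and labelled Elac2 -/-. They carry cre under the promoter of muscle creatine kinase, which excised an exon of Elac2 that loxP sites flank. Control samples are titled "L/L" and labelled Elac2 +/+, with no cre named. Age and sex are not given in the sources used here, and because no group carries cre without the loss of Elac2, those effects cannot be told apart. The promoter that drives cre is known for activity in cardiac and skeletal myocytes, so a vascular gene is read here in a heart whose myocytes were the cells aimed at. Elac2 encodes RNase Z, which cuts the 3' ends of precursor tRNAs. Nothing in the labels says how the hearts were trimmed of atria and great vessels.

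Smooth muscle cells ring the arteries and set their width by contraction. In them calcium and calmodulin switch on myosin light chain kinase (Mylk), which lets smooth muscle myosin (Myh11) pull on smooth muscle actin (Acta2), while calponin (Cnn1) and transgelin (Tagln) bind the actin filaments. Pericytes lie on capillaries, are recruited through the PDGF receptor Pdgfrb and carry the proteoglycan Cspg4, the G protein regulator Rgs5 and the potassium channel subunit Abcc9, while Notch3 is the main Notch receptor of arterial smooth muscle and pericytes. Most contractile genes are switched on by serum response factor (SRF) with myocardin, through a DNA element called the CArG box. Some of these genes are not private to vessels: Acta2, Tagln and Cnn1 are also transcribed in the embryonic myocardium and in myofibroblasts, and Abcc9 is made in cardiomyocytes.

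The libraries held 9850100 to 14461110 counts. Elac2, the check on the labels, was at 5.36 to 6.52 CPM in knockouts and at 13.0 to 15.0 CPM in controls (log2 fold change -1.27, SE 0.15, adjusted p = 2.12e-04). CPM, the usual unit of depth-scaled counts, is a gene's share of its library after TMM scaling. Mitochondrial-encoded features took 33.3 to 36.7% of counts in knockouts and 49.3 to 61.1% in controls. With library size as the only scaling, the median gene sat at a log2 fold change of 0.68, and with TMM it sat at -0.01. Fold changes below are therefore relative to the bulk of genes. Relative to that median, the value of each of the 10 genes moved by at most 0.029 between 4 scalings. A scaling shifts all genes by nearly the same amount, so this does not test which scaling is right. Adjusted p-values come from edgeR's quasi-likelihood test over all 14302 genes with Benjamini-Hochberg adjustment, and a gene was called at an adjusted p under 0.05. By that rule 36.5% of all genes were called, 17.8% lower and 18.7% higher in knockouts, and in 50.6% of genes the 3 knockout libraries did not overlap the 3 control libraries. Nothing in the labels says more of how the mice were matched. The p-values weigh each difference between groups against the spread within groups of these 6 libraries. The estimate of that spread for a gene also draws on the other genes tested.

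The CArG box is shown first because SRF is the shared switch of the contractile genes. It is a stretch of CC, 6 central letters that are A or T, and GG, and it reads as the same element on both strands. In the 250 bases before each transcript start, taken from RefSeq (GRCm38.p6, the build of mm10), 1.47% of 32851 windows held it, and 8.59% held it when 1 of the central letters was allowed to be G or C. Of the 10 genes, 7 had a window and Myh11, Tagln and Pdgfrb were not searched. Of those 7, none held the exact element, and Acta2 alone held the relaxed one, at 2 places. Acta2, Cnn1 and Mylk are the contractile genes among those searched. Sequence outside these 250 bases was not searched, so elements of Cnn1 or Mylk that lie elsewhere would be missed. Only 0.67% of windows held 2 or more relaxed boxes. The striated muscle actins Acta1 and Actc1, the paralogs of Acta2 that fill heart and skeletal muscle, had exact elements. They are set beside the Acta2 boxes as its striated muscle paralogs. In the knockout hearts Acta1 rose, and Actc1 was called lower, as Acta2 was. The smooth muscle paralog Actg2 had no window. Among the other paralogs and SRF pathway genes searched, Actg1, Cnn2, Srf, Vcl, Fhl2 and Filip1l also held exact elements, which are not shown. Of 3 boxes in the Acta1 window and 4 in the Actc1 window, 1 and 2 are shown, and those left out are relaxed. Capitals mark the box, and positions count back from the transcript start.

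Acta2, chr19:34255438-34255467, minus strand, first base of the box at 84: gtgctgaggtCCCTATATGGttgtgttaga
Acta2, chr19:34255388-34255417, minus strand, first base of the box at 34: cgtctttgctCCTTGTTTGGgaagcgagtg
Actc1, chr2:114053031-114053060, minus strand, first base of the box at 175: ctccctagctCCCTATATGGccattgctct
Actc1, chr2:114052903-114052932, minus strand, first base of the box at 47: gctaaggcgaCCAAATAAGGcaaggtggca
Acta1, chr8:123894829-123894858, minus strand, first base of the box at 73: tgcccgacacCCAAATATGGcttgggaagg

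Each Acta2 box holds 1 G or C among its central letters. The Actc1 box at 175 has the same letters as the Acta2 box at 84, while the Actc1 box at 47 and the Acta1 box at 73 are exact. A match is a description of these letters and no evidence that a factor is bound there.

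Among the contractile genes, 2 fell in the knockout hearts, 1 rose and 2 did not pass the test, with log2 fold changes from -1.65 to 1.41. The pericyte and mural genes split in the same proportion, 2 lower, 1 higher and 2 not called, with values from -1.15 to 0.72. Together 6 of 10 were called, 4 lower and 2 higher, beside 36.5% of all genes, and 6 of 10 had groups that did not overlap, beside 50.6%. In a whole heart, fewer cells of a type and less RNA per cell cannot be told apart.

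**Figure D1:**
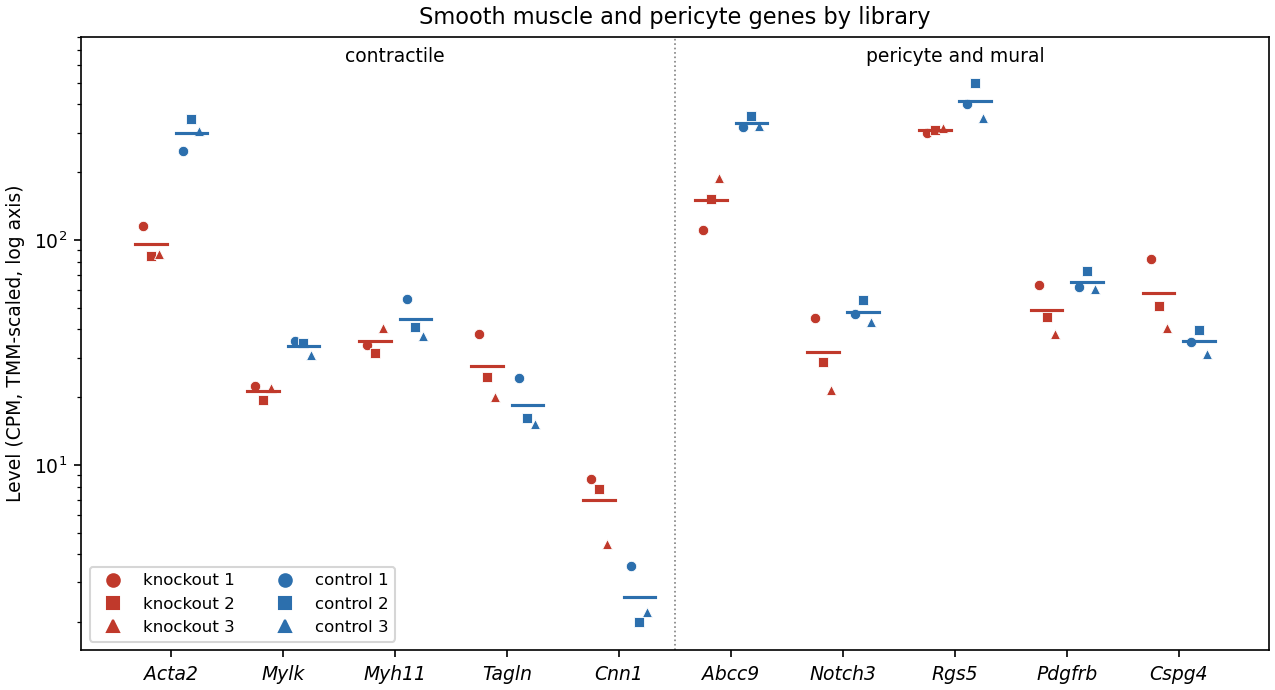
Level of each of the 10 genes in each library, in TMM-scaled CPM on a log axis, with knockouts in red, controls in blue, 1 symbol per library and a line at the group mean of 3. Acta2, Mylk, Abcc9 and Rgs5 lie lower in every knockout library than in any control, and Cnn1 and Cspg4 lie higher.

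Acta2, smooth muscle alpha actin, the main thin filament protein of the vessel wall, fell by the largest margin of the 10. It had 115, 84.8 and 86.9 CPM in knockouts and 248, 346 and 304 CPM in controls. Every knockout lay far below every control. The group means were 95.6 ± 16.9 CPM in knockouts and 299 ± 49.0 CPM in controls (SD, n = 3 each). On the log2 scale the difference was -1.65 (SE 0.17, adjusted p = 1.07e-04), a 3.13-fold lower level in knockouts. It was called lower under all 18 alternatives, at values of -1.80 to -0.92. Its gene lies on chromosome 19 (34241090 to 34255590, minus strand, mm10, from GENCODE M21). Its transcripts share only 0.326% of their exact 50-base stretches with any other gene. Whether reads of the abundant striated actins were placed on Acta2 was not tested.

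Mylk, the kinase that phosphorylates myosin light chain to start contraction, fell as well. Its level was 22.3, 19.4 and 21.9 CPM in knockouts, against 35.7, 34.9 and 30.8 CPM in controls. Both groups were tight, with an SD of 1.56 CPM in knockouts and 2.62 CPM in controls. Relative to controls the log2 fold change was -0.67 (SE 0.12, adjusted p = 1.84e-03), the smallest error of the 10 genes. With library size alone it was 0.02, below the 0.68 of all genes, and without control 2 and knockout 2 together it was -0.59 and not called (adjusted p = 0.0651). The gene (chromosome 16, 34745210 to 35002420) also makes a short product, telokin, from an internal start, and counts per gene cannot separate the forms. The antisense gene E130310I04Rik overlaps 4.87% of its exon bases.

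Myh11, the smooth muscle myosin heavy chain and the most restricted marker of the lineage, did not pass the test. It had 34.0, 31.4 and 40.7 CPM in knockouts and 54.7, 40.9 and 37.5 CPM in controls, and the groups overlapped, since knockout 3 lay above control 3. Its log2 fold change was -0.33 (SE 0.16, adjusted p = 0.128), and it was not called under any of the 18 alternatives.

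Tagln, transgelin, an early actin-binding marker of smooth muscle, was at 38.2, 24.6 and 20.0 CPM in knockouts and at 24.3, 16.1 and 15.2 CPM in controls. The groups overlapped because control 1 lay above knockout 3. The fitted log2 fold change was 0.57 (SE 0.25, adjusted p = 0.102). It was called higher without knockout 3 (0.75, adjusted p = 0.0349), with no filter (0.62) and with library size alone (1.23), and it was 0.26 without knockout 1. An annotated antisense gene, Gm48529, covers 62.4% of its exon bases and held 57 counts over the knockouts and 58 over the controls. Without strand in the counting, reads from that stretch cannot be assigned to either gene.

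Cnn1, calponin, which binds actin and slows the myosin motor, rose. Of the contractile genes it had the fewest reads, with 163, 135 and 55 in knockouts and 47, 18 and 19 in controls. Every knockout lay above every control, though knockout 3 exceeded control 1 by little. The means were 6.97 ± 2.24 CPM in knockouts and 2.58 ± 0.833 CPM in controls (SD, n = 3 each). In log2 units Cnn1 differed by 1.41 (SE 0.30, adjusted p = 5.79e-03), a 2.65-fold higher level in knockouts, and it stayed called with each single library left out (1.22 to 1.75). With control 2 and knockout 2 both left out it was 1.17 and lost its call (adjusted p = 0.0861). The gene lies on chromosome 9 (22099216 to 22109630, plus strand), and none of its 50-base stretches occurs in another annotated gene.

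**Figure D2:**
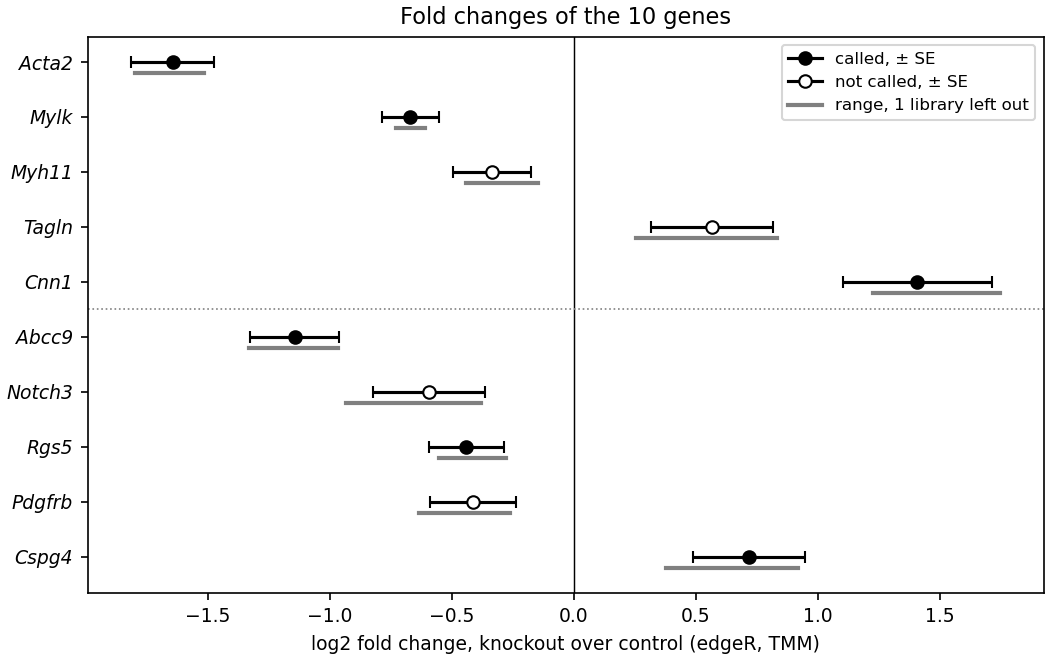
Log2 fold change, knockout over control, of the 10 genes with its SE (filled points are called, open points are not) and, in grey, the range when 1 library is left out. Contractile genes run from Acta2 at -1.65 to Cnn1 at 1.41 and pericyte and mural genes from Abcc9 at -1.15 to Cspg4 at 0.72. With library size alone Myh11, Mylk, Rgs5, Pdgfrb and Notch3 lie above 0, as does the median of all genes at 0.68.

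Abcc9, the sulfonylurea receptor subunit that pairs with Kcnj8 in vessel walls and with Kcnj11 in myocytes to form ATP-sensitive potassium channels, was the pericyte-group gene with the largest fall. It had 111, 152 and 188 CPM in knockouts and 318, 356 and 322 CPM in controls. The controls were within a factor of 1.12 of each other and the knockouts spread over a factor of 1.69, with no overlap. Its log2 fold change came to -1.15 (SE 0.18, adjusted p = 1.12e-03), a 2.21-fold lower level, and -0.45 with library size alone, where the call was lost (adjusted p = 0.087). Its gene is on chromosome 6 (142587862 to 142702315, minus strand). Of its channel partners, the myocyte pore subunit Kcnj11 fell by 0.70 on the log2 scale (adjusted p = 5.64e-03). The vascular pore subunit Kcnj8 was at -0.42 and did not pass the test (adjusted p = 0.0744). Within each library the ratio of Abcc9 to Kcnj8 counts was 1.69-fold lower in knockouts and that of Abcc9 to Kcnj11 was 1.38-fold lower, in both cases without overlap of the groups. The paralog Abcc8 was called lower at -0.45 (adjusted p = 0.042), but not once any library other than control 2 was omitted.

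Rgs5, which shortens signals of G protein-coupled receptors in pericytes, was the most abundant of the pericyte genes. Its level was 299, 307 and 313 CPM in knockouts and 401, 501 and 347 CPM in controls. The knockouts were almost equal (SD 7.21 CPM) and all below the controls. Its difference was -0.44 on the log2 scale (SE 0.15, adjusted p = 0.0456), close to the threshold. Omitting any library other than control 3 ended the call, with values of -0.46 to -0.28, as did the lack of a filter (adjusted p = 0.0523).

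Pdgfrb, the receptor for PDGF-B that holds pericytes to the vessel, was at 62.7, 45.6 and 38.0 CPM in knockouts and at 61.7, 72.9 and 60.6 CPM in controls. Knockout 1 alone lay among the controls. Over all libraries the log2 fold change was -0.41 (SE 0.18, adjusted p = 0.092), and without knockout 1 it was -0.63 and called lower (adjusted p = 2.92e-03).

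Notch3, the receptor that keeps arterial smooth muscle mature, had 44.9, 28.5 and 21.4 CPM in knockouts and 46.9, 53.9 and 43.0 CPM in controls. Again knockout 1 overlapped the controls and the other knockouts did not. Its log2 fold change of -0.59 missed the threshold (SE 0.23, adjusted p = 0.0672). It was -0.93 and called lower without knockout 1 (adjusted p = 6.33e-04), and also called lower with limma-voom (-0.65, adjusted p = 0.0499) and with no filter. The antisense gene Gm17276 overlaps 6.03% of its exon bases.

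Cspg4, a membrane proteoglycan of pericytes that also marks glial precursors, rose. It had 82.4, 51.0 and 40.6 CPM in knockouts and 35.1, 39.8 and 31.2 CPM in controls. The groups did not overlap, but knockout 3 was only just above control 2 and knockout 1 was the highest by far. Its log2 fold change was 0.72 (SE 0.23, adjusted p = 0.0342), a 1.64-fold higher level. Without knockout 1 it was 0.38 (adjusted p = 0.048), and the call ended when any control or knockout 2 was omitted (0.64 to 0.82) and with a robust fit (adjusted p = 0.054). The gene lies on chromosome 9 (56865033 to 56899870, plus strand).

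The contractile and pericyte genes differed little as groups. The median log2 fold change was -0.33 for the contractile and -0.44 for the pericyte and mural genes, beside -0.01 for all genes tested. The difference of 0.11 ran from -0.07 to 0.33 when single libraries were left out. The contractile minus pericyte difference in median log2 level had an SD of 0.17 between libraries of a group. That SD is of levels, whose middle genes can change between libraries, and does not measure the spread of the 0.11. The ratio of the geometric means, contractile to pericyte, was 1.21-fold higher in knockouts, at log2 values of -1.61, -1.65 and -1.63 in knockouts and -1.66, -2.15 and -1.92 in controls. The groups did not overlap in this ratio, although all knockouts were close to control 1 and lay further from controls 2 and 3.

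The split ran inside each group instead. Ratios of counts within a library do not depend on scaling. They restate the fold changes of the genes paired and are no separate evidence of a split. Cnn1 and Acta2 had the highest and lowest fold changes of the 10 smooth muscle and pericyte genes. The Cnn1 to Acta2 ratio was 8.39-fold higher in knockouts, with log2 values of -3.73, -3.44 and -4.29 in knockouts and -6.13, -7.43 and -7.10 in controls. The Tagln to Acta2 ratio was 4.59-fold higher, again with no overlap. In these ratios every knockout library stood well above every control library. Against Myh11, Acta2 was 2.51-fold lower in knockouts and Cnn1 was 3.34-fold higher. Mylk and Myh11 kept nearer to each other, their ratio being 1.28-fold lower with overlapping groups.

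In the pericyte group, Cspg4, the only gene of that group called higher, stood apart from its partners in ratios that likewise restate its fold change. The Cspg4 to Pdgfrb ratio was 2.14-fold higher in knockouts, with log2 values of 0.39, 0.16 and 0.10 in knockouts and -0.81, -0.87 and -0.96 in controls. Its SD on the log2 scale was 0.16 in knockouts and 0.07 in controls, and the groups were well apart. By contrast the Pdgfrb to Rgs5 ratio differed by -0.02 and the Notch3 to Pdgfrb ratio by -0.22, both with overlapping groups. Abcc9 was 1.68-fold lower relative to Rgs5, without overlap.

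**Figure D3:**
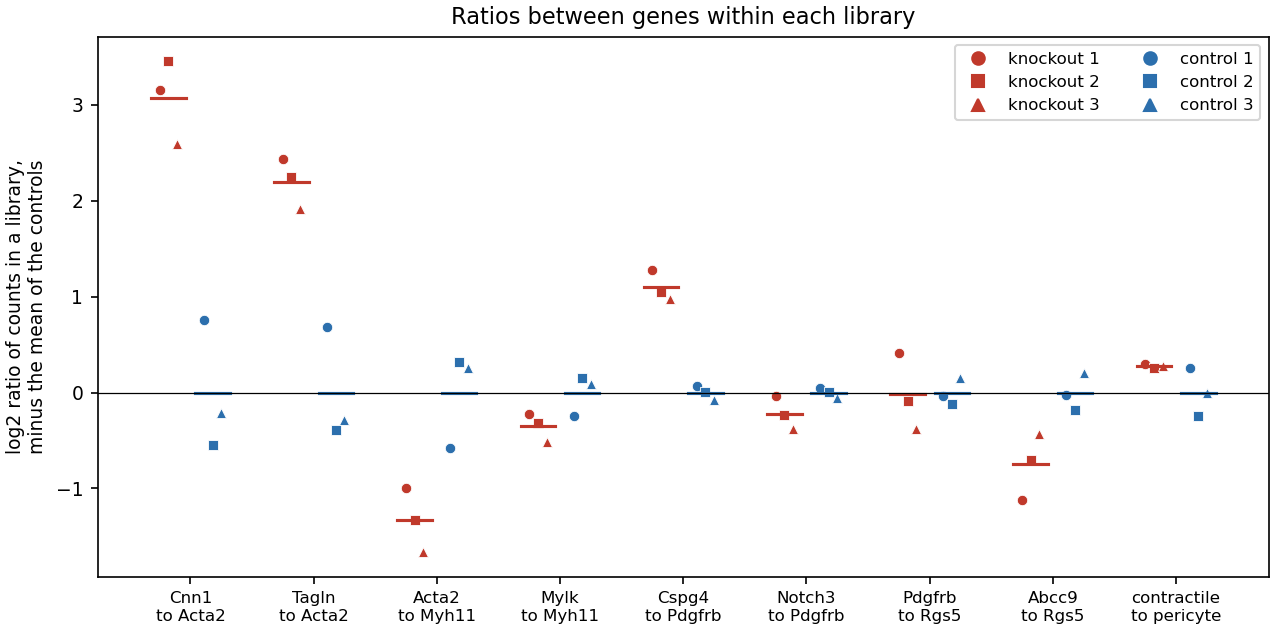
Log2 ratio of counts between genes in each library, with the mean of the controls set to 0, knockouts in red and controls in blue. Cnn1 and Tagln are higher relative to Acta2 in all 3 knockouts (by 3.07 and 2.20 on average), Cspg4 is higher relative to Pdgfrb by 1.10, and the ratio of all contractile to all pericyte genes differs by 0.28.

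The order of levels per length changed at its top. Levels per length are CPM divided by the kilobases of all annotated exons of a gene. In knockouts Rgs5 came first at 67.4 ± 1.59 and Acta2 next at 43.5 ± 7.70 CPM per kilobase (SD, n = 3). In controls Acta2 came first at 136 ± 22.3, with Rgs5 next at 91.6 ± 17.1, and in both groups the ranges of this pair did not overlap. Abcc9 followed in both, at 17.9 ± 4.58 in knockouts and 39.6 ± 2.54 in controls. At the bottom, Mylk was last in knockouts at 1.89 ± 0.138, its range overlapping that of Cnn1 at 2.55 ± 0.819. In controls Cnn1 was last at 0.943 ± 0.305, with no overlap with Cspg4 above it at 2.96 ± 0.358. The other neighbours in the knockout order overlapped in range from Abcc9 through Tagln to Pdgfrb and from Cspg4 through Myh11 and Notch3 to Cnn1. In the control order, Pdgfrb with Tagln, Notch3 with Myh11, and Mylk with Cspg4 overlapped. The Tagln level is divided by all its exon bases, of which 62.4% are shared with the antisense gene Gm48529. Strand use in counting is not given, so the place of Tagln in both orders is uncertain.

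The knockout libraries differed among themselves in these genes more than the controls did for 6 of the 10. Knockout 1 was the highest of the knockouts for 7 genes and knockout 3 for the other 3, namely Myh11, Abcc9 and Rgs5. The widest spreads were in Notch3 and Cspg4, where knockout 1 exceeded knockout 3 by 2.10-fold and 2.03-fold. In controls no gene spread by more than the 1.77-fold of Cnn1. Knockout 1 also had the most RNA of matrix genes: elastin (Eln) was at 436, 171 and 153 CPM in the knockouts and at 89.2, 75.2 and 106 CPM in controls. The part of these matrix levels in the values of Cspg4, Notch3, Pdgfrb and Tagln was not tested beyond leaving knockout 1 out, as given above.

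In a wider set of smooth muscle genes the called members were lower. Of 14 tested, 5 were lower and 0 higher, beside the 36.5% of all genes called in either direction, with a median log2 fold change of -0.44 and values from -1.78 to 0.65. At an unadjusted p under 0.05 edgeR gave 6 lower and 0 higher, and 0 were called higher by DESeq2 or limma-voom. Smoothelin (Smtn), a cytoskeletal protein of contractile cells, was at 30.0 to 33.6 CPM in knockouts and at 97.9 CPM or more in controls, a log2 fold change of -1.68 (adjusted p = 9.48e-06). Pcp4l1 was at -1.78 (adjusted p = 1.26e-05), the actin bundler Synpo2 at -1.38 (adjusted p = 1.54e-03) and Mrvi1, a partner of cGMP signalling in smooth muscle, at -0.98 (adjusted p = 3.28e-03). Several of these, Smtn and Synpo2 among them, are also transcribed in striated muscle. Leaving out single libraries gave 4 to 7 lower and 0 higher. With no filter there were 6 lower and 1 higher, the light chain Myl9 at 0.38 (adjusted p = 0.0411), and with library size alone 3 lower and 4 higher.

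Other pericyte genes were lower for 7 of 16, and 1 was higher, beside 17.8% of all genes lower and 18.7% higher. Their median was -0.51. Vitronectin (Vtn), secreted by capillary pericytes, was at 4.09, 5.11 and 5.31 CPM in knockouts and 11.1, 17.6 and 12.9 CPM in controls, a log2 fold change of -1.52 (adjusted p = 4.35e-04). Ebf1, a transcription factor of mesenchymal cells, fell by 0.61 (adjusted p = 2.70e-03). Foxs1, a forkhead factor of pericytes, was the one that rose, at 1.40 (adjusted p = 3.38e-03), with 3.08 to 4.30 CPM in knockouts and at most 1.67 CPM in controls. Cspg4 was therefore not alone among pericyte genes in lying higher. Without single libraries the counts were 5 to 8 lower and 1 to 2 higher.

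Calls in the SRF pathway went both ways. Of 14 tested genes 4 were lower and 2 higher, beside 17.8% of all genes lower and 18.7% higher, with a median of -0.23. Myocardin (Myocd), the coactivator of SRF in smooth and cardiac muscle, was at 49.6, 30.7 and 36.8 CPM in knockouts and 82.9, 86.3 and 108 CPM in controls, a log2 fold change of -1.24 (adjusted p = 7.17e-04). The related coactivator Mkl2 was at -0.54 (adjusted p = 7.88e-03), Fhl2, a LIM protein that binds SRF, at -1.49 (adjusted p = 1.05e-04) and Nexn, an actin-binding protein of the sarcomere, at -1.06 (adjusted p = 7.08e-03). Srf itself and Csrp1, named after their values were seen because they were called higher, were at 0.36 (adjusted p = 0.0496) and 0.55 (adjusted p = 0.0104). Srf was no longer called when control 1, control 2, knockout 2 or knockout 3 was omitted, nor with RLE scaling (adjusted p = 0.0507). Without knockout 1 the counts were 8 lower and 2 higher.

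Genes that set the phosphorylation of myosin light chain were mostly not called. Of 16 tested, 1 was lower and 3 higher, with a median of 0.04, beside 36.5% of all genes called in either direction. The myosin phosphatase targeting subunits went opposite ways, Ppp1r12b at -0.69 (adjusted p = 1.40e-03), the form abundant in heart, and Ppp1r12a at 0.73 (adjusted p = 1.91e-03). The phosphatase inhibitor Ppp1r14b rose by 0.99 (adjusted p = 5.89e-04) and the light chain Myl12a rose by 0.74 (adjusted p = 6.34e-03).

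In the Notch pathway 3 of 13 genes were lower and 1 was higher, beside 36.5% of all genes called in either direction. The median was -0.21. The receptors Notch1 and Notch2 fell by 0.67 (adjusted p = 6.51e-03) and 0.83 (adjusted p = 7.24e-03). The endothelial ligand Dll4 was at -0.95 (adjusted p = 0.0278), and only omission of control 1 or knockout 1 left it called. The feedback inhibitor Nrarp was at 0.57 (adjusted p = 0.0345), and it was not called when knockout 2 or any control was omitted. With control 2 and knockout 2 both left out, edgeR called 0 of the 13. Among PDGF ligands and the alpha receptor, 1 of 5 was called, Pdgfc at 1.42 (adjusted p = 0.0101), beside 36.5% of all genes. Pdgfb, a ligand of Pdgfrb, was at -0.16 (adjusted p = 0.533). The lowest value of this list was -0.42, and at an unadjusted p under 0.05 edgeR gave 1 gene lower and 1 higher.

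Receptors for vasoactive hormones were lower for 2 of 7 tested, beside 17.8% of all genes, and higher for 0, with a median of -0.45. At an unadjusted p under 0.05 edgeR gave 4 lower and 0 higher. DESeq2 and limma-voom each called 2 lower and 0 higher. The called genes were the alpha adrenergic receptors Adra1a, at 1.49, 2.15 and 5.15 CPM in knockouts and 25.8, 35.6 and 21.9 CPM in controls (-3.31, adjusted p = 1.60e-04), and Adra1b at -1.70 (adjusted p = 2.53e-05). Both are made by cardiomyocytes in the mouse heart as well as by vessels. Without knockout 3 the count was 4 lower, and without knockout 1 it was 3 lower and 1 higher.

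**Figure D4:**
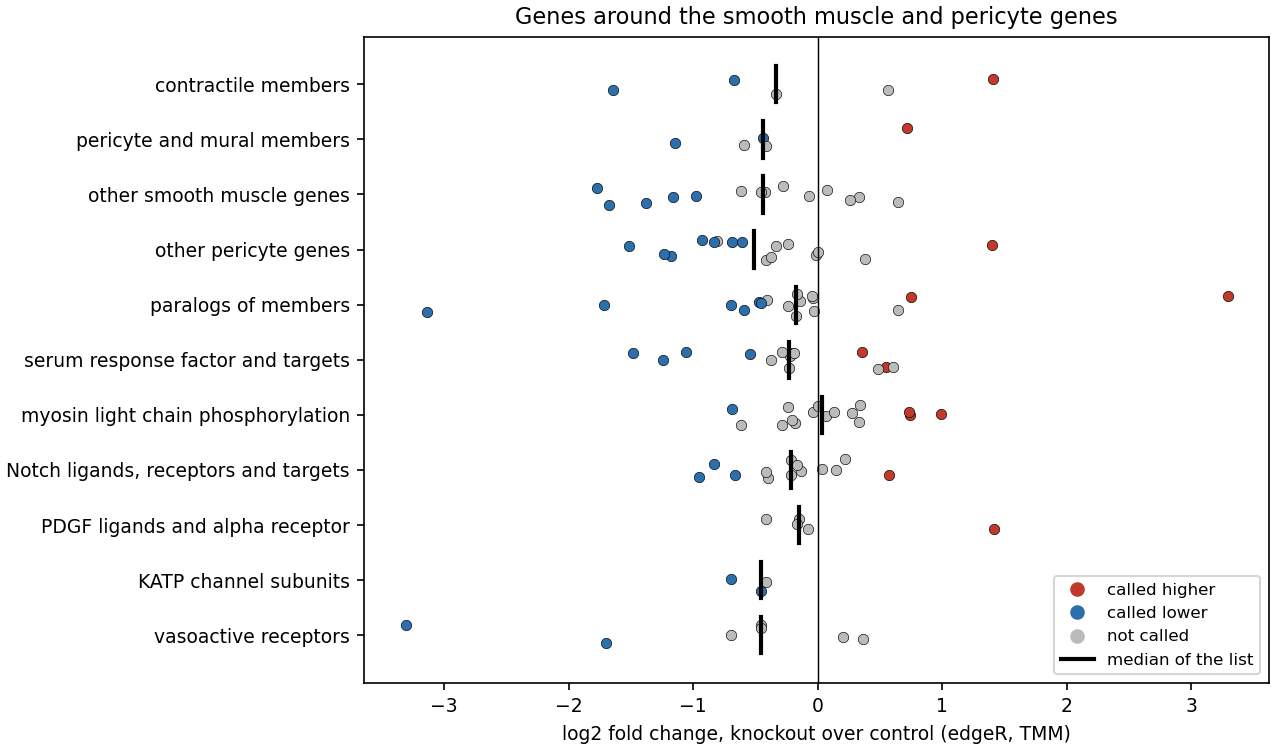
Log2 fold change, knockout over control, of every tested gene in the lists around the 10 genes, coloured by call, with the median of each list as a black bar. Medians lie between -0.51 for other pericyte genes and 0.04 for myosin light chain phosphorylation, beside -0.01 for all genes. With library size alone the median of all genes is 0.68 and the values shift with it.

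Paralogs of the 10 genes, compared to show whether whole families moved, went in both directions. Of 17 tested, 6 were lower and 2 were higher, beside 17.8% of all genes lower and 18.7% higher. Among actins, skeletal Acta1 had 702, 970 and 331 CPM in knockouts and 55.5, 88.1 and 61.1 CPM in controls, a log2 fold change of 3.29 (adjusted p = 1.45e-04). Cardiac Actc1 was at -0.70 (adjusted p = 0.0178), and omission of any library other than control 1 or knockout 1 ended that call. The enteric smooth muscle actin Actg2 was at most 1.21 CPM in any library (0.65, adjusted p = 0.295), and cytoplasmic Actb and Actg1 were at -0.17 (adjusted p = 0.438) and -0.14 (adjusted p = 0.393). The Acta2 to Actc1 ratio was 1.92-fold lower in knockouts, without overlap of the groups.

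Among the myosin light chain kinases, Mylk4, a striated muscle form, fell by 3.14 (adjusted p = 3.30e-06) and cardiac Mylk3 was at -0.17 (adjusted p = 0.591). Among nonmuscle myosins, Myh14 fell by 0.60 (adjusted p = 4.40e-03), Myh10 was at 0.75 (adjusted p = 0.0408) and Myh9 at -0.41 (adjusted p = 0.275). Omission of control 1, control 2, knockout 1 or knockout 2 ended the Myh10 call, and Myh9 was called lower without knockout 1 (-0.86). Calponin paralogs did not follow Cnn1: Cnn2 was at -0.47 (adjusted p = 0.0446), called no longer when any library but knockout 1 was omitted, and Cnn3 at -0.04 (adjusted p = 0.876). The Cnn1 to Cnn2 ratio was 3.76-fold higher in knockouts without overlap. Tagln2 was at -0.03 (adjusted p = 0.92). Of the RGS genes, Rgs2, an inhibitor of Gq signalling, fell by 1.72 (adjusted p = 1.94e-03), while Rgs3 was at -0.04 (adjusted p = 0.839) and Rgs4 at -0.24 (adjusted p = 0.469).

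Markers of other cells were read beside these results. Over all genes 17.8% were called lower and 18.7% higher, the share to set beside each count. Myofibroblast genes were higher for 6 of 7 tested, their sum being 293 to 766 CPM in knockouts and 192 to 231 CPM in controls. Postn, a marker of activated fibroblasts, was at 422, 274 and 152 CPM in knockouts and 85.5, 86.8 and 90.2 CPM in controls, with knockout 1 highest and knockout 3 lowest, as for Cnn1, Tagln, Cspg4, Pdgfrb and Notch3. Genes of the elastic artery wall were higher for 3 of 4, with sums of 500 to 1123 CPM in knockouts and 370 to 431 CPM in controls. Resting fibroblast genes had 1 of 10 higher, or 3 without knockout 1 or knockout 3, with overlapping sums. Whether these cells hold part of the Cnn1, Tagln or Cspg4 reads was not tested.

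Cardiomyocyte genes were lower for 3 of 10 and endothelial genes for 4 of 10, beside 17.8% of all genes. The endothelial count was 1 without control 2 or knockout 2, 2 without control 1 or knockout 3 and 7 without knockout 1. Cardiomyocyte sums were 62690 to 64820 CPM in knockouts and 91310 to 92350 CPM in controls. Endothelial sums were 523 to 612 CPM in knockouts and 702 to 777 CPM in controls. Sums of the macrophage, atrial, adipocyte, erythroid and Schwann lists overlapped between groups, with 0 of 8 macrophage, 0 of 4 atrial, 0 of 4 adipocyte, 1 of 5 erythroid and 0 of 2 tested Schwann genes called by edgeR. At an unadjusted p under 0.05 there were 1 macrophage gene and 0 atrial, adipocyte or Schwann genes, and DESeq2 and limma-voom called 0 in these 4 lists. Without control 2 there were 2 atrial genes called lower, and without knockout 3 there were 1 atrial and 2 adipocyte genes called lower. With no filter, 2 of 4 atrial and 1 of 4 adipocyte genes were called lower, and 1 of 8 macrophage genes was called higher. The erythroid genes had a median of 0.81, with 0 to 2 called higher when single libraries were left out and 5 of 5 with no filter. Of all these markers, 0 were at 0 in all libraries. The atrial gene Bmp10 differed widely within both groups, at 146, 7.37 and 84.8 CPM in knockouts and 115, 0.444 and 186 CPM in controls. With the libraries low in Bmp10, control 2 and knockout 2, both left out, Acta2 and Abcc9 were still called lower. Cspg4 was then at 0.90 (adjusted p = 0.0904) and Cnn1 at 1.17 (adjusted p = 0.0861), neither called, while the count over all genes was 2056 in place of 5215.

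**Figure D5:**
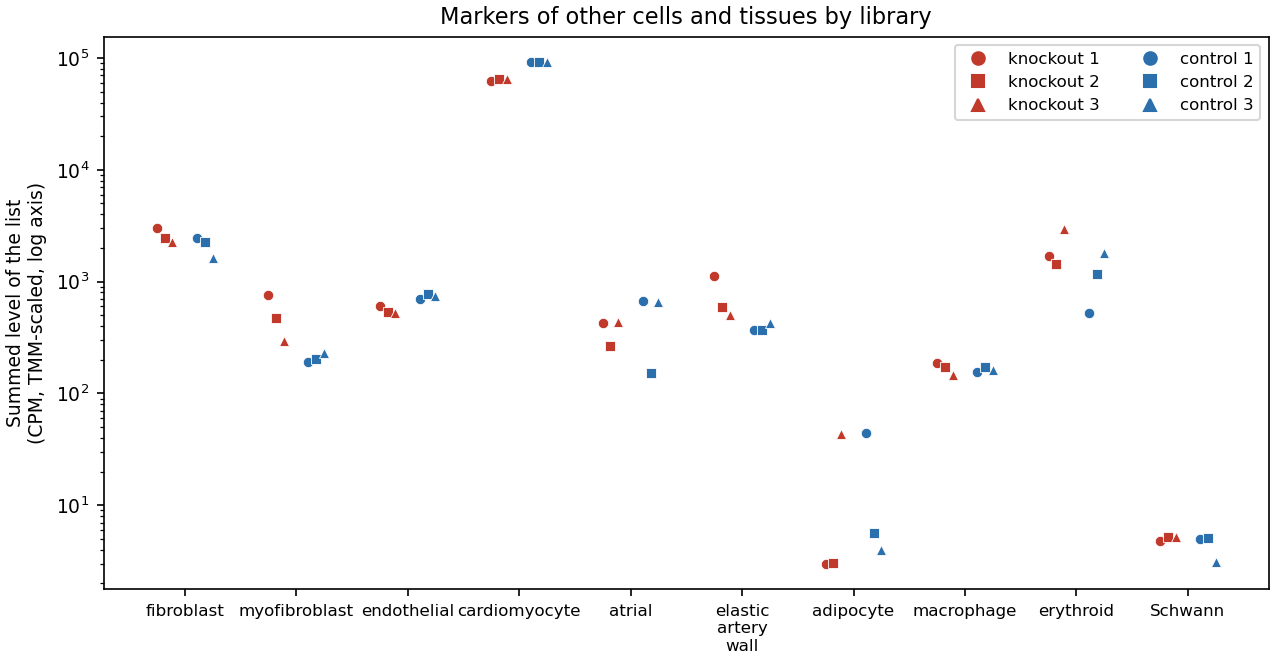
Summed CPM of marker lists of other cells and tissues in each library, on a log axis, knockouts in red and controls in blue. Myofibroblast and elastic artery wall sums are higher in all 3 knockouts, with knockout 1 highest, while cardiomyocyte and endothelial sums are lower in all 3, and atrial and adipocyte sums vary within both groups.

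The authors' deposited table called the same 6 genes in the same directions and left the same 4 uncalled. In it Acta2 was at -1.61 (adjusted p = 1.56e-18), Abcc9 at -1.11 (adjusted p = 2.11e-08), Cnn1 at 1.45 (adjusted p = 3.34e-04) and Cspg4 at 0.75 (adjusted p = 7.18e-03).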

How the data were processed

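Per the submitters' processing notes, whose entries state no role or order, the tools were featureCounts 1.5.1, HISAT2 2.0.5, DESeq2 1.16.1 and SAMtools 1.5, and the build was mm10. The authors deposited whole-number counts per gene and library, unnormalised. Each mouse had technical replicates in the series design, and 1 count column a mouse was used. The authors' deposited table gives a mean signal over libraries, log2 fold changes and their errors, a Wald score and p-values. Strand use in counting: not given in the sources used here.

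Counts of all genes were tested with edgeR 4.0.16 in R 4.3.3 (TMM, filterByExpr with a minimum count of 10, quasi-likelihood, knockout over control), Benjamini-Hochberg adjusted over 14302 genes. The SE is the log2 fold change over the square root of F. Levels used TMM-scaled library sizes. Of 51875 Ensembl identifiers 51682 matched GENCODE M21, which gave coordinates and exon lengths. The fit was tested on simulated data. Within each group, libraries differed beyond counting noise (chi-square over its degrees of freedom, 8.13 or more). Such a value cannot tell separate mice from separately made libraries of the same mouse. All 6 were counted as replicates by the numbers in their titles.

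The 10 genes and all lists were chosen with earlier results of these data known. Genes were named by rule: the 10, their tested paralogs, and from each list up to 4 called genes of smallest adjusted p, or the 1 of smallest p. One gene that this rule picks is not reported here. Exceptions chosen after their values were seen are Srf, Csrp1, Kcnj8, Pdgfb, Myl9, Eln, Postn and Bmp10. Alternatives covered scaling, filter, tool (DESeq2 1.42.0, limma 3.58.1 voom, a robust fit), threshold, a replicate block and left-out libraries.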

Additional observations from a re-analysis of the deposited data

How the results depend on the processing

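Of the 10 genes, Acta2 kept its call under all 18 alternatives, and Cnn1 and Abcc9 under 17 each. Rgs5 kept its call under 8 and Cspg4 under 11. Library size alone gave 8645 called genes (8093 higher, 552 lower), 1 of the 10 lower, a contractile median of 0.33 and a pericyte and mural median of 0.26, and it turned Myh11 to 0.33, Rgs5 to 0.26, Pdgfrb to 0.29, Notch3 to 0.11 and Mylk to 0.018. All of these lie below the 0.68 of all genes under that scaling. A robust fit left 1 of the 10 higher. An adjusted p under 0.01 gave 3006 genes (1591 higher, 1415 lower), with 1 of the 10 higher. Without control 2 and knockout 2 together there were 2056 called genes (1042 higher, 1014 lower), 2 of the 10 lower and 0 higher, and the contractile minus pericyte median turned to -0.02. Single libraries left out gave 3694 to 5837 called genes (1899 to 2903 higher, 1795 to 2934 lower), 3 to 5 of the 10 lower, 1 to 3 higher, a contractile median of -0.44 to -0.15, a pericyte and mural median of -0.63 to -0.31 and a difference of -0.07 to 0.33. The difference turned to -0.069 without control 2 and to -0.062 without knockout 3. The cause of these changes was not tested.

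With the replicate number as a block, Tagln (0.56, adjusted p = 0.0193) and Notch3 (-0.65, adjusted p = 0.0375) were called and Rgs5 (-0.43, adjusted p = 0.0918) was not. The erythroid list then had 3 of 5 genes called higher. The labels do not say that the numbers pair mice, and the correlations between libraries of one number, after group means were removed, were -0.198, 0.085 and -0.087. Cnn1 rests on 18 to 163 reads a library, so counting error limits its fold change.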
